A study of Mus musculus with 8 samples.

Results

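The genes described here encode the proteins of the enamel matrix and 1 protein of dentin: Amelx (amelogenin), Ambn (ameloblastin), Enam (enamelin), Odam (odontogenic ameloblast-associated protein), Amtn (amelotin) and Dspp (dentin sialophosphoprotein). They were taken as all probe sets that the platform annotation gives to exactly 1 of these 6 genes. This gave 8 probe sets of 45101 on the array, 2 each for Amelx and Enam and 1 each for the other four genes, and 6 genes of 18193 with a single-gene probe set. The samples were mandibular molar tooth germs of ICR mouse embryos, an outbred stock, collected 24 hours after the pregnant mother received a single intraperitoneal injection at embryonic day 14. The 4 groups were 5E1 (an antibody that binds the Shh protein, 10 mg/kg), 40-1a (an antibody against β-galactosidase and the control for 5E1, 10 mg/kg), cyclopamine (an antagonist of Smo, the membrane protein that relays the Hedgehog signal, 10 mg/kg) and PBS (1 ml). Each group had 2 arrays of separate biological samples. The labels do not say how many litters a sample holds or what the vehicle of cyclopamine was.

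Ameloblasts, the epithelial cells that make enamel, secrete amelogenin, ameloblastin and enamelin while the enamel layer is laid down. Odam and Amtn belong to later ameloblasts and to the epithelium that attaches the gum to the tooth, and Dspp to odontoblasts, the mesenchymal cells that make dentin. All belong to the family of secreted calcium-binding phosphoproteins. Odam, Amtn, Ambn, Enam and Dspp lie on mouse chromosome 5, and Amelx lies on chromosome X within the span of the gene Arhgap6. At the stage sampled the molar is a cap of epithelium over mesenchyme, before either cell type has matured, so how many of these transcripts rise above background was the question asked first.

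The promoters are shown because these genes are read here side by side and because the 5 windows hold a motif in common. RefSeq promoter windows of build GRCm38.p6 were matched for 5 of the 6 genes, all except Dspp. The 120 bases before each annotated start are given 5′ to 3′ on the gene's strand, with the letters TGATTGG, which contain a CCAAT box read on the other strand, in capitals. The positions are chrX:169187210-169187329 (minus strand) for Amelx, chr5:88455871-88455990 (plus) for Ambn, chr5:88487855-88487974 (plus) for Enam, chr5:87884890-87885009 (plus) for Odam and chr5:88375988-88376107 (plus) for Amtn.
Odam: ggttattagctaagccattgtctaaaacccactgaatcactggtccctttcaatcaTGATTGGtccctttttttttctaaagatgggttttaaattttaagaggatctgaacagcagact
Ambn: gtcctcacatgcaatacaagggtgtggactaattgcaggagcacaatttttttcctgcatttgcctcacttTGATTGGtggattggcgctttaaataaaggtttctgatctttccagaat
Amelx: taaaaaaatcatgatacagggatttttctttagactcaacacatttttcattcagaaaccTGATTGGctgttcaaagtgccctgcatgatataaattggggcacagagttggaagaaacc
Enam: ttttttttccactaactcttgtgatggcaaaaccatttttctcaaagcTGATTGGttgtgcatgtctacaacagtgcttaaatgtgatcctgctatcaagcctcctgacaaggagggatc
Amtn: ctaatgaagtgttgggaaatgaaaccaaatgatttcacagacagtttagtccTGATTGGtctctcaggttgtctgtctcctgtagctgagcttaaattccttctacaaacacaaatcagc

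The motif began 72 bases before the start of Enam, 68 before that of Amtn, 64 before that of Odam, 60 before that of Amelx and 49 before that of Ambn, each time on the gene's strand. Of all 32851 RefSeq promoter windows, 2.63% held it on the gene's strand in the same 120 bases, and 7.82% held it on either strand anywhere in the window of 250 bases before to 50 after the start. It was searched for after these windows had been read, so the match in 5 of 5 is a description. The other motifs were searched on both strands of the whole window. TATAAA (the letters of a TATA box) was found in Amelx and Enam (13.6% of all windows). It began 31 bases before the start of Amelx but 137 before that of Enam, outside the bases printed. TGTGGT (the Runx core) was found in Odam (16.8%) and CAATTA (a homeobox core) in Ambn and Odam (8%). CACCC (the Sp and Klf core) was found in Ambn and Odam (57.5%). TAATTA (5.29% of all windows) and TGGGTGGTC (the Gli core, 0.253%) were found in none of the 5. Apart from ATTGG, which TGATTGG contains and 37.4% of all windows hold, no hit of these motifs overlapped TGATTGG.

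All 8 arrays had a trimmed mean signal of 500 in the deposited values. The tissue label was checked against markers: all 18 dental epithelium genes measured (of 20 listed) and 16 of 17 dental mesenchyme genes (of 18) passed the filter on low values. Skeletal muscle genes (19 of 21) and genes of suprabasal oral epithelium (13 of 15) passed it too. Of all 18193 genes, 13008 passed. The filter level (signal 60.3) lay below the background of every array (set below, 72.3 or more), so passing is a weak check. The arrays fell into 3 clusters that cut across the injections, and these bear on the results below. The first replicates of 5E1, 40-1a and PBS made up cluster 1, the second replicates of 5E1, 40-1a and cyclopamine made up cluster 2, and the first cyclopamine array with the second PBS array made up cluster 3. Relative to cluster 1, all 18 dental epithelium genes were higher on average in cluster 2 (mean log2 difference 0.65) and none of the 16 dental mesenchyme genes was (mean -0.99). All 13 suprabasal oral epithelium genes (mean 1.24) and all 19 skeletal muscle genes (mean 1.45) that passed the filter were higher there too, by more. As a check of the injections, the Hedgehog target Ptch1 differed by -2.31 (SE 0.30, limma adjusted p = 0.969) on the log2 scale between 5E1 and 40-1a. It differed by -0.27 (SE 0.30) between cyclopamine and PBS. With the array cluster, drawn from these same values, as a block, the limma adjusted p for 5E1 against 40-1a was 0.00107.

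The deposited table holds no detection calls, so background was set on each array as the 95th percentile of 80 probe sets of 71 olfactory and vomeronasal receptor genes, a family with no known part in tooth germs. This level was a signal of 72.3 to 106.7, depending on the array. By it, 3 of the 6 genes were above background on at least 4 of the 8 arrays, namely Odam (8 arrays), Ambn (7) and Amelx (5, with 1 of its 2 probe sets). Enam, Amtn and Dspp were above it on none. With the stricter 99th percentile (84.2 to 146.8) Odam was above on 8 arrays, Ambn on 7 and Amelx on 2. In bulk tissue, fewer cells of a type and less RNA per cell cannot be told apart.

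**Figure D1:**
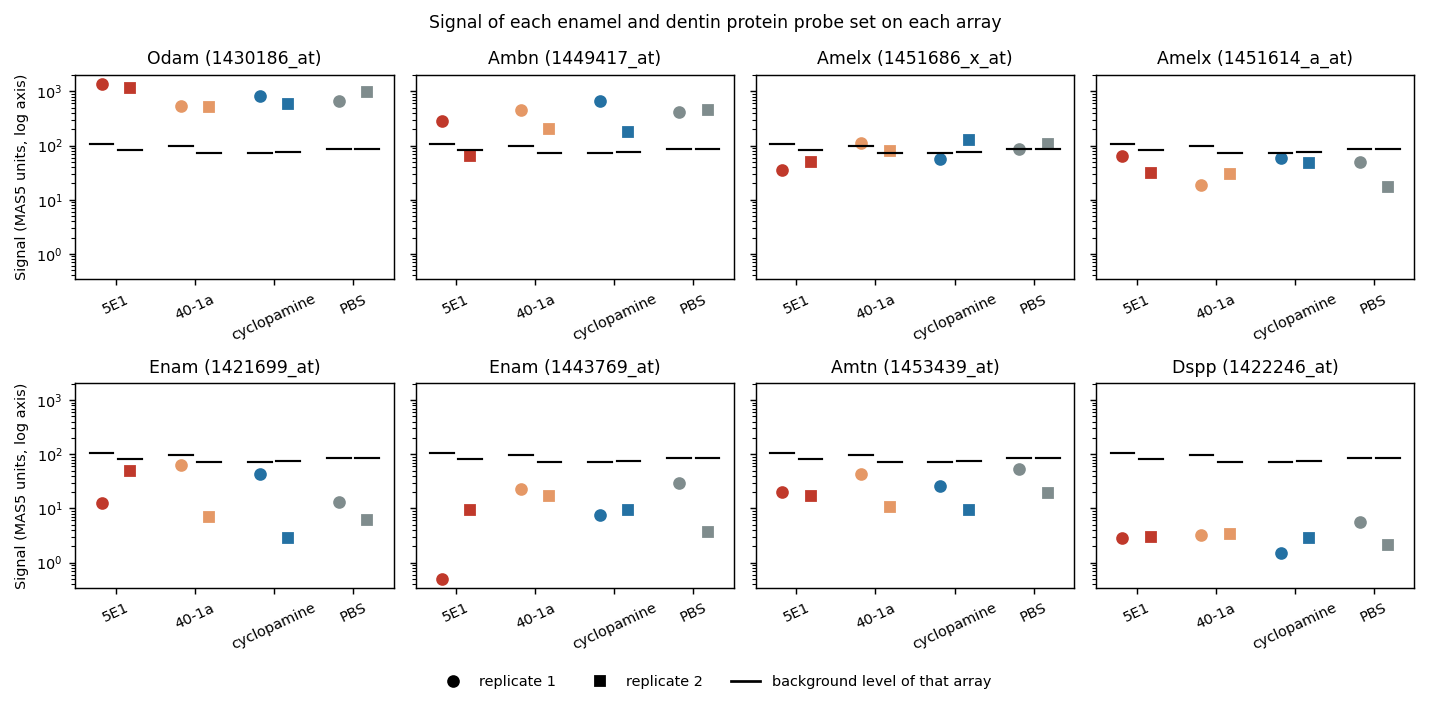
Signal of each of the 8 probe sets on each array (MAS5 units, log axis), by injection group; circles are replicate 1, squares replicate 2, and each black bar is the background level of that array. Odam lies above its bars on all 8 arrays, Ambn on all but 5E1 replicate 2, Amelx 1451686_x_at straddles them, and the other 5 probe sets lie below on every array.

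Odam was the member with a clear signal on every array, and it read highest after 5E1, though no difference between groups passed the adjusted test. Its probe set (1430186_at) read 1379.0 and 1166.6 after 5E1, 537.3 and 506.7 after 40-1a, 830.8 and 573.2 after cyclopamine, and 669.8 and 981.5 after PBS. The 5E1 arrays were the 2 highest of the 8 and the 40-1a arrays the 2 lowest. Group means were 1272.8 ± 150 after 5E1, 522.0 ± 21.7 after 40-1a, 702.0 ± 182 after cyclopamine and 825.7 ± 220 after PBS (SD, n = 2 each). In this order of levels (5E1, PBS, cyclopamine, 40-1a) the PBS and cyclopamine arrays overlapped, and the lower cyclopamine array (573.2) lay close to the higher 40-1a array (537.3).

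Setting 5E1 against 40-1a tests the block of Shh with an antibody injection on both sides. Odam was 2.41-fold higher after 5E1 (difference 1.27 in log2(signal + 9), SE 0.26, 95% interval 0.67 to 1.86). Its unadjusted p in limma was 0.00125, the ninth smallest of 13008 genes, but the Benjamini-Hochberg adjusted p was 1. No gene passed the adjusted threshold of 0.05 in this comparison (0% of genes), with 1.22% at an unadjusted p under 0.05. The 2 groups did not overlap for Odam, as for 8.66% of all genes in the higher direction. Set against PBS, Odam was 0.64 higher after 5E1 (SE 0.26, unadjusted p = 0.0384, adjusted p = 1) and 0.63 lower after 40-1a (SE 0.26, unadjusted p = 0.0413, adjusted p = 1), so PBS lay between the antibody groups. How far depended on the PBS array: without PBS replicate 1 the differences were 0.37 for 5E1 and -0.90 for 40-1a, and without PBS replicate 2 they were 0.91 and -0.35. With the array cluster as a block they were 0.94 and -0.33. Relative to the mean of the dental epithelium genes, Odam was 0.28 higher after 5E1 than after PBS (SE 0.50). The 5E1 and PBS arrays did not overlap (9.97% of genes in the higher direction), nor did the 40-1a and PBS arrays (10.8% in the lower direction, 9.71% in the higher). Unadjusted p-values under 0.05 were found for 1.48% of genes between 5E1 and PBS and for 0.677% between 40-1a and PBS, with 0% of genes called in either. Both comparisons share the PBS arrays.

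The difference in Odam was of like size within the array clusters. In cluster 1, 5E1 replicate 1 exceeded 40-1a replicate 1 by 1.35, and in cluster 2, 5E1 replicate 2 exceeded 40-1a replicate 2 by 1.19. With 1 array left out at a time it ran from 1.15 to 1.39. The array cluster is itself drawn from the values tested, and its use was a choice known from earlier results on these data. With it as a block, the SE of the Odam difference was 0.13 and the limma adjusted p 0.0558, still short of the threshold. Dental epithelium genes, which mark the tissue layer that ameloblasts come from, had a median difference of 0.05 between 5E1 and 40-1a (11 of 18 positive, 0 called, all genes -0.01), and their summed signal was 61285 and 95658 after 5E1 and 59863 and 88877 after 40-1a. Much of these sums came from 2 keratin genes. Krt5 gave 17809.9 and 25299.1 after 5E1 and 18431.2 and 26151.4 after 40-1a. Krt14 gave 11937.0 and 19729.1 after 5E1 and 11565.5 and 19353.9 after 40-1a. Taken relative to the mean log2 value of the 18 dental epithelium genes, Odam was 1.06 higher after 5E1 (SE 0.50), a value added after seeing the data. Genes of the enamel knot, the signalling centre in the epithelium, had a median difference of 0.56 (11 of 12 positive, 0 called). Their summed signal was 15190 and 18654 after 5E1 and 10969 and 14691 after 40-1a. Of these sums, Shh alone gave 7388.0 and 9306.5 after 5E1 and 4701.4 and 7117.2 after 40-1a. The part of the enamel knot in the Odam difference was not tested.

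After cyclopamine Odam did not differ from PBS beyond the spread of the arrays. The difference was -0.23 (SE 0.26, 95% interval -0.83 to 0.37, unadjusted p = 0.398, adjusted p = 0.983), and its sign turned without cyclopamine replicate 2 (0.03) or PBS replicate 2 (0.04). In cluster 3, the only one with an array of each group, it was -0.24. No gene passed in this comparison (0%, with 1.58% at an unadjusted p under 0.05). The effect of 5E1 against 40-1a exceeded that of cyclopamine against PBS by 1.50 for Odam (SE 0.36, unadjusted p = 0.00357, adjusted p = 1). The corresponding difference for Ptch1 was -2.04 (SE 0.43, adjusted p = 1; -2.35 and adjusted p = 0.0172 in limma with the array cluster block), and 1.44% of genes had an unadjusted p under 0.05 for it.

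**Figure D2:**
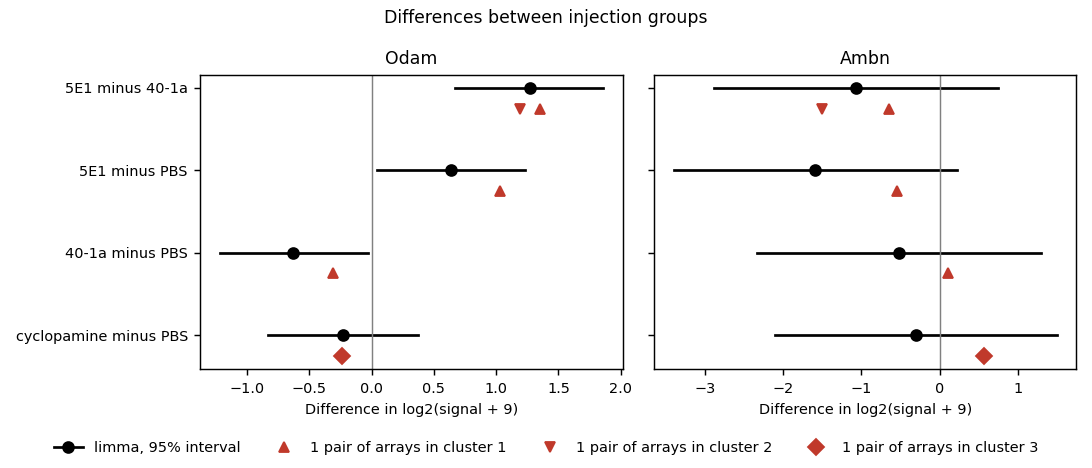
Differences in log2(signal + 9) for Odam (left) and Ambn (right) in 4 comparisons; black points and lines are limma values with 95% intervals, and coloured markers are differences between 1 pair of arrays of the same cluster. For Odam the interval of 5E1 minus 40-1a is 0.67 to 1.86 and both pairs lie within it, whereas the interval for Ambn is -2.88 to 0.74 and rests in part on 5E1 replicate 2, which was below background.

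Ambn, which encodes a matrix and cell adhesion protein of secretory ameloblasts, varied widely within every group except PBS. Its probe set (1449417_at) read 287.5 and 64.3 after 5E1, 455.5 and 198.1 after 40-1a, 670.5 and 181.4 after cyclopamine, and 423.5 and 447.5 after PBS. The value of 64.3 on 5E1 replicate 2 was the only one below background. Group means were 175.9 ± 158 after 5E1, 326.8 ± 182 after 40-1a, 425.9 ± 346 after cyclopamine and 435.5 ± 17.0 after PBS (SD, n = 2 each). In the order of levels (PBS, cyclopamine, 40-1a, 5E1) each group overlapped with its neighbours, and only 5E1 and PBS did not overlap (12.4% of genes in the lower direction). The lower array of a group was the one in cluster 2 wherever the group had one.

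No comparison of Ambn passed. Its log2 difference was -1.07 (SE 0.78, adjusted p = 1) between 5E1 and 40-1a, -1.59 (SE 0.78, unadjusted p = 0.0769, adjusted p = 1) between 5E1 and PBS, -0.30 (SE 0.78, adjusted p = 0.983) between cyclopamine and PBS, and -0.52 (SE 0.78, adjusted p = 1) between 40-1a and PBS. Single arrays set these values. Without 5E1 replicate 2 the difference from 40-1a was -0.06 and that from PBS -0.58, and without 5E1 replicate 1 they were -2.08 and -2.60 as measured, with the group then resting on the array below background. The difference between 5E1 and 40-1a was -0.49 without 40-1a replicate 1 and -1.66 without 40-1a replicate 2. Within clusters, 5E1 differed from 40-1a by -0.65 in cluster 1 and, as measured with that same array, by -1.50 in cluster 2, and with the cluster as a block the SE was 0.24 (adjusted p = 0.667) and the difference from PBS -0.71. Between cyclopamine and PBS the cluster block gave 0.51, and leaving out an array gave -1.22 (cyclopamine replicate 1) or 0.61 (cyclopamine replicate 2). Between 40-1a and PBS it was -1.10 without 40-1a replicate 1, 0.06 without 40-1a replicate 2 and 0.37 with the cluster block.

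Ambn followed the mesenchymal and not the epithelial genes over the 8 arrays. Its signal was 64.3 to 198.1 in cluster 2, 287.5 to 455.5 in cluster 1 and 447.5 to 670.5 in cluster 3. Pearson's r with the mean of the 16 dental mesenchyme genes was 0.91, and with the mean of the 18 dental epithelium genes -0.85. Without 5E1 replicate 2 these were 0.78 and -0.68. With the mean of 7 osteoblast genes r was 0.94, and 0.87 without that array. Ambn also ran against the suprabasal oral epithelium genes (r = -0.71) and the skeletal muscle genes (-0.57). Without 5E1 replicate 2 these were -0.83 and -0.84, further from zero than the value for dental epithelium. Marker genes of both dental layers, suprabasal epithelium and muscle shift together between these arrays, so these values describe the arrays. The part of tissue make-up was not tested. For Odam r was 0.02 with the mesenchyme genes and 0.08 with the epithelium genes, but 0.59 and -0.36 without 5E1 replicate 2.

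**Figure D3:**
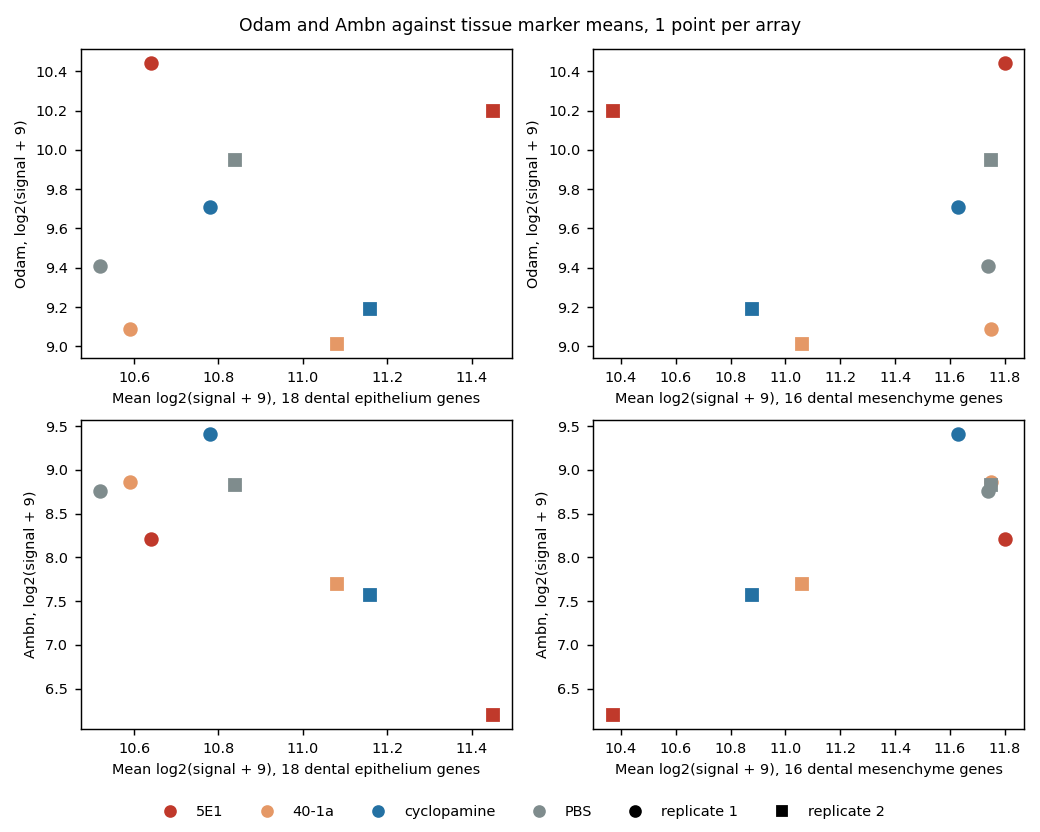
Odam (top) and Ambn (bottom) in log2(signal + 9) against the mean of 18 dental epithelium genes (left) and 16 dental mesenchyme genes (right), with 1 point per array coloured by injection group. Ambn falls along the epithelial axis (r = -0.85) and rises along the mesenchymal one (r = 0.91), while the 2 highest Odam points, those of 5E1, lie at opposite ends of the mesenchymal axis.

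Amelx, the gene of the main enamel matrix protein, lay at the edge of detection, and its 2 probe sets disagreed. The brighter, 1451686_x_at, read 34.9 and 49.2 after 5E1, 110.4 and 78.9 after 40-1a, 56.8 and 129.3 after cyclopamine, and 87.6 and 105.4 after PBS. It was above background on both arrays of 40-1a and of PBS, on 1 array of cyclopamine and on neither of 5E1. The suffix x marks a probe set whose probes may also match other sequences. The second, 1451614_a_at, was below background on all 8 arrays and read 64.9 and 30.9 after 5E1, against 18.9 and 30.3 after 40-1a, which is the opposite order.

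Since Amelx was not above background on either 5E1 array, only a bound on the fold can be given. With each 5E1 array set at its 95th percentile background, the lower bound from 1451686_x_at was 1.03-fold for PBS over 5E1. For 40-1a over 5E1 it was 1.0-fold. Bounds this near 1.0 do not establish a difference, and the size of any fold cannot be read. By the 99th percentile this probe set was above background on only 2 arrays, and the second probe set ordered 5E1 and 40-1a the other way. The measured means of 1451686_x_at were 42.1 ± 10.1 after 5E1, 94.7 ± 22.2 after 40-1a, 93.0 ± 51.2 after cyclopamine and 96.5 ± 12.6 after PBS (SD, n = 2 each). The limma adjusted p was 1 for 5E1 against 40-1a and for 5E1 against PBS. The measured 5E1 signals did not overlap with those of 40-1a, as for 10.8% of all genes in the lower direction, or with PBS (12.4%). Cyclopamine differed from PBS by -0.14 (SE 0.44), with 0.40 without cyclopamine replicate 1 and -0.67 without cyclopamine replicate 2. The difference between 40-1a and PBS was -0.04 (SE 0.44), and it ran from -0.26 without 40-1a replicate 1 to 0.18 without 40-1a replicate 2.

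The remaining enamel genes and the dentin gene were not above background on any array, so no fold is given for them. Enam, whose protein is the largest of the enamel matrix, read 12.6 and 49.0 after 5E1, 62.8 and 6.9 after 40-1a, 42.8 and 2.8 after cyclopamine, and 13.1 and 6.1 after PBS with its brighter probe set (1421699_at). Its second probe set (1443769_at) ran from 0.5 to 29.6. Amtn, a protein of the basal lamina under maturing ameloblasts, ran from 9.5 to 53.7 over the 8 arrays. Dspp, from which the main non-collagenous proteins of dentin are cut, ran from 1.5 to 5.6. These values are compatible with any level that the probe sets cannot tell from background, and do not show that the transcripts were absent.

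The genes next to the members on the chromosome were read as well. Dmp1, the bone and dentin matrix gene next to Dspp, was above background on 1 array, 5E1 replicate 1 (145.9), and Jchain and Prol1, next to Enam and Amtn, were above it on none. Ambn and Enam are adjacent, and the first was above background on 7 arrays and the second on none. Arhgap6, which overlaps Amelx, was above background on all 8 arrays, at 355.0 and 138.5 after 5E1 and 413.3 and 148.4 after 40-1a. Msl3 and Hccs, on either side of Amelx, were above it on all 8 arrays too.

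The genes whose 8-array pattern was most like each of the detected members were named by Pearson's r over log2 values, as a description. For Odam they were Rasl11b (r = 0.934), Mdfi (0.894) and Slc6a15 (0.882). Rasl11b, a small GTPase gene, read 4095.5 and 3946.0 after 5E1, 2893.4 and 2414.1 after 40-1a, 3288.8 and 2474.0 after cyclopamine, and 3059.9 and 3192.3 after PBS, so that its 5E1 arrays too were the highest. For Ambn they were Twist1 (0.990), Chst1 (0.990) and Gpx7 (0.986). Twist1, a transcription factor of embryonic mesenchyme, read 603.5 on 5E1 replicate 2, the array on which Ambn was lowest, and 2903.4 on cyclopamine replicate 1, where Ambn was highest. For Amelx, with values near background, they were Zfp689 (0.955), Ackr3 (0.903) and Ubtd1 (0.901). Each member's 3 genes are the highest of 13008 values of r over only 8 arrays.

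Other genes of enamel and dentin formation were read from a list of proteases and mineralisation genes. Of 19 listed, 14 were measured and 9 passed the filter, and limma called 0 higher and 0 lower in each of the 5 comparisons. Their median log2 difference was -0.06 between 5E1 and 40-1a (3 of 9 positive, all genes -0.01). Between cyclopamine and PBS it was 0.48, but only 5 of 9 were positive (all genes 0.02). In that comparison the dental epithelium genes had a median of 0.26 (16 of 18 positive) and the suprabasal oral epithelium genes 0.48 (13 of 13). Mmp20 and Klk4, the proteases that cut enamel proteins, were above background on no array, at 16.8 to 57.4 and 6.1 to 33.0. Tuft1, which encodes tuftelin, ran from 965.4 to 1896.1 and differed by -0.07 (SE 0.30) between 5E1 and 40-1a. Col17a1 and Lamb3, which anchor epithelium to its basement membrane, differed by -0.06 (SE 0.52) and 0.03 (SE 0.54), and Fam83h, an intracellular protein needed for enamel, by 0.02 (SE 0.45). Ank, Alpl, Col1a1 and Fam20c, genes of mineral handling and matrix, differed by -0.24, -0.38, 0.21 and -0.01. Only Alpl had an unadjusted p under 0.05 in any comparison, between 5E1 and PBS (-0.65, SE 0.22, unadjusted p = 0.0186, adjusted p = 1).

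Relatives of the members in the phosphoprotein family, with the related genes Sparc and Sparcl1 and the neighbouring casein and salivary genes, formed a second list. Of 14 listed, 11 were measured, 5 passed the filter and 0 were called in either direction, with a median of -0.18 between 5E1 and 40-1a. Ibsp, bone sialoprotein of osteoblasts, read 535.6 and 591.4 after 5E1, 909.0 and 658.4 after 40-1a, 1471.2 and 848.1 after cyclopamine, and 1518.8 and 1324.6 after PBS. It was 1.32 lower after 5E1 than after PBS (log2 difference -1.32, SE 0.28, unadjusted p = 0.00179, adjusted p = 1), 0.87 lower after 40-1a than after PBS (-0.87, SE 0.28, unadjusted p = 0.0163, adjusted p = 1), and at -0.45 (SE 0.28) between 5E1 and 40-1a. Sparc differed by 0.01 (SE 0.15), Sparcl1 by -0.07 (SE 0.35) and Smr2 by -0.18 (SE 0.30) between the antibodies, and Csn3, above background on 2 arrays, by -0.51 (SE 0.41). The list of salivary gland genes, from glands that develop beside the mandible, had 6 of 7 measured genes above background on no array.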

How the data were processed

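The deposited table gives a linear intensity per probe set, with 1 array per sample. The authors used MAS5 according to the submitters' processing notes. No source used here gives the software version, the scaling target or a hybridisation batch. The members and lists were chosen with earlier results of these data known. The platform annotation gave exactly 1 gene for 34945 of the probe sets. Values were transformed to log2(signal + 9), a pseudocount at the 10th percentile of all values, which understates changes of weak genes. For each of 18193 genes the brightest probe set by mean was kept, and 13008 genes with a mean at or above the 40th percentile of probe sets (signal 60.3) were tested. The tests came from limma 3.58.1 (R 4.3.3; lmFit, contrasts.fit, eBayes with a trend), in 1 fit of 4 group means to 8 arrays with 4 residual degrees of freedom. P-values are two-sided and adjusted by Benjamini-Hochberg over all 13008 genes, with a threshold of 0.05. The number of arrays limits the precision, and the p-values reflect only the spread among these samples, which may be technical. Array clusters came from average linkage on 1 minus Pearson's r over the genes tested. The cluster block was thus taken from the same values that were tested, and it left fewer residual degrees of freedom. Its smaller SEs and p-values are a description.

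Every member probe set was named, with the measured neighbours on the chromosome, up to 8 passing genes of each of the enamel and the relatives lists, and the 3 genes most like each member above background on at least 4 arrays. The alternatives were normalisation, pseudocount, filter, probe set choice, variance model, samples in the fit and the 2 blocks. The replicate number was not treated as a pairing, because the labels name none. The deviations of same-numbered arrays correlated at 0.00 between cyclopamine and PBS but at 0.32 to 0.59 for the other group pairs. These values do not decide whether the arrays were paired, so a replicate block was run as an alternative.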

Additional observations from a re-analysis of the deposited data

How the results depend on the processing

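No member passed the adjusted threshold under any of the alternatives run, and 301 of 312 alternative values kept their direction. A change of filter or variance model, or leaving out an array of a group not compared, cannot move a difference of group means. Many of the 312 values therefore repeat the main value, and the tally is not a measure of robustness. The number of genes called, 0 in every comparison, became 1 with the replicate block for 5E1 against 40-1a (Ptch1, adjusted p = 0.00519) and for 5E1 against PBS (1, Ptch1, 0.00517). With the array cluster block it became 3 for 5E1 against 40-1a (Ptch1, Gli1, Sostdc1), 2 for 5E1 against PBS (Ptch1, Gli1) and 3 for the antibody effect minus the cyclopamine effect (Ptch1, Gli1, Fos). The replicate block changed no member's call, with Odam at an adjusted p of 1 and a difference of 1.27 between 5E1 and 40-1a. For Ambn it lowered the SE from 0.78 to 0.46. The unadjusted p of Ambn in limma then was 0.0492 between 5E1 and 40-1a (0.208 without the block). Between 5E1 and PBS it was 0.00903 (0.0769 without the block). Directions turned in 11 values, none of them called, and the cause was not tested. Between cyclopamine and PBS, Ambn was at 0.51 with the array cluster block and 0.61 without cyclopamine replicate 2, Amelx at 0.40 without cyclopamine replicate 1, and Odam at 0.03 without cyclopamine replicate 2 and 0.04 without PBS replicate 2. Between 40-1a and PBS, Ambn was at 0.37 with the array cluster block and 0.06 without 40-1a replicate 2, and Amelx at 0.18 without 40-1a replicate 2 and 0.09 without PBS replicate 2. For the antibody effect minus the cyclopamine effect, Ambn was at 0.24 without 5E1 replicate 2 and 0.15 without cyclopamine replicate 1. With 1 array left out at a time, values between cyclopamine and PBS ran from -1.22 to 0.61 for Ambn, -0.67 to 0.40 for Amelx and -0.50 to 0.04 for Odam, those between 40-1a and PBS from -1.10 to 0.06 for Ambn and -0.26 to 0.18 for Amelx, and the difference of effects for Ambn from -1.78 to 0.24. Amelx was left below the filter, and so was not tested, without x and s probe sets, with the mean of probe sets and with the 60th percentile filter. Odam between 5E1 and 40-1a ran from 1.06 to 1.39 over all alternatives, with an adjusted p from 0.0558 to 1. Between 5E1 and PBS it ran from 0.28 to 0.94. Signal over background limits Amelx, Enam, Amtn and Dspp, for which these arrays give at most a bound.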

Other observations

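Transcription factors that act in ameloblasts and odontoblasts were measurable on nearly all arrays, also those on which Enam, Amtn and Dspp were not. Of 18 listed, 16 were measured, and 15 of these were above background on all 8 arrays (the sixteenth, Dlx6, on 7). Sp6, needed for ameloblast formation, ran from 937.8 to 1919.5 and differed by -0.01 between 5E1 and 40-1a (unadjusted p = 0.986). Sp7, the osteoblast and odontoblast factor osterix, ran from 346.8 to 595.4, and Msx2 from 599.5 to 1095.0. Limma called 0 of the 16 in either direction in each of the 5 comparisons. At an unadjusted p under 0.05 there were 0 between 5E1 and 40-1a (1.22% of all genes) and 2 between cyclopamine and PBS (1.58%). These 2 were Runx1 (log2 difference -0.73, SE 0.22, unadjusted p = 0.0108, adjusted p = 0.983) and Sp3 (-0.72, SE 0.31, unadjusted p = 0.0499, adjusted p = 0.983). Each other comparison had 1. It was Dlx5 between 5E1 and PBS (-0.50, unadjusted p = 0.0123, 1.48% of all genes). Between 40-1a and PBS it was Dlx6 (-1.01, unadjusted p = 0.0364, 0.677%). For the antibody effect minus the cyclopamine effect it was Runx1 (0.85, unadjusted p = 0.0261, 1.44%). The median of the list was -0.08 between 5E1 and 40-1a, against -0.01 for all genes.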
